A study of Homo sapiens with 28 samples.

Results

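The genes described here are 8 inhibitors of the ERK pathway: the dual-specificity phosphatase genes Dusp4, Dusp5 and Dusp6, the Sprouty genes Spry1, Spry2 and Spry4, and the SPRED genes Spred1 and Spred2. They were selected on their measured H3K27me3 and H3K27ac peak coverage in these same mice, and on where DKOITD H3K27me3 lay relative to WT acetylation. That coverage and position are therefore described below and not tested. All 8 were found among the 21887 protein-coding genes of the mouse annotation. At each gene, the length of the gene interval plus 5 kb either side that lay under called peaks was measured in kb, for 2 histone marks and in every mouse. The marks sit on lysine 27 of histone H3: H3K27me3 is written by the Polycomb enzymes EZH2 and EZH1 at silenced genes, and H3K27ac is found at active promoters and enhancers.

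The tested mice, labelled DKOITD, carried floxed Ezh2 on both alleles, floxed Runx1 on both alleles, Cre in 1 Rag1 allele (Rag1 Cre/+) and an internal tandem duplication in 1 Flt3 allele (Flt3 ITD/+). The control mice, labelled WT, carried the same floxed Ezh2 and Runx1 alleles with Rag1 +/+ and Flt3 +/+, so they had no Cre to delete them. All were C57BL/6, and no age was given in the sources used here. DKOITD marrow (5 mice, labelled DKOITD48, DKOITD52, DKOITD53e, DKOITD83 and DKOITD185) was leukaemic and was used whole. From WT marrow (3 mice) the Kit-expressing fraction was enriched with CD117 beads. The peaks were also called against a different input library in each genotype. Genotype, leukaemia, cell preparation and input therefore cannot be told apart in any comparison below. A Cre driven by Rag1 acts in early lymphoid cells and their descendants, so marrow cells outside that lineage would keep intact floxed alleles. Recombination of the alleles was not measured in the peak lists used here.

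ERK is the last kinase of a cascade that runs from receptor tyrosine kinases, such as FLT3 and KIT, through RAS, RAF and MEK. Active ERK switches on genes whose products shut the cascade down again, which limits how long and how strongly it signals. DUSP proteins remove phosphate from ERK and related kinases, Sprouty proteins act between the receptor and RAF, and SPRED proteins bring a RAS-inactivating protein to the membrane. These feedback genes are commonly used as a readout of ERK activity, and their loss prolongs ERK signalling.

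The 8 mouse libraries of each mark held 3343831 to 6411696 fragments in DKOITD and 2766339 to 3994483 in WT marrow for H3K27me3, and 9435546 to 11458360 in DKOITD and 6515614 to 7072997 in WT marrow for H3K27ac. The DKOITD libraries varied widely in the genome length under H3K27me3 peaks, from 3.17 Mb in DKOITD53e, 5.20 Mb in DKOITD48 and 5.24 Mb in DKOITD83 to 30.3 Mb in DKOITD52 and 40.5 Mb in DKOITD185, against 13.9 to 27.3 Mb in WT. For H3K27ac, the same order of mice gave 7.03, 13.1, 7.46, 20.4 and 23.8 Mb, against 16.8 to 29.7 Mb in WT. H3K27ac lay at 4 or 5 of 5 general blood cell genes in DKOITD and 5 of 5 in WT mice, and at 0 or 1 of 5 stromal and endothelial genes in either genotype. In a mixed marrow, fewer cells carrying a mark and less of the mark per cell cannot be told apart.

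Of the 8 genes, 2 carried H3K27me3 in DKOITD mice alone: Dusp6 and Spry2 had at least 1 H3K27me3 peak in every DKOITD mouse and none in any WT mouse. Under the presence rule, a gene is marked in a mouse when peaks cover at least 200 bp of its window, and a gain is 5 of 5 DKOITD and 0 of 3 WT mice. Across all genes, 4 of 21887 met this rule (0.0183%), and they were Dusp6, Spry2, Pip5k1b and Cd81. Pip5k1b encodes a lipid kinase and Cd81 a tetraspanin of the cell surface. Coverage in every DKOITD mouse exceeded that in every WT mouse at the same 2 of the 8 genes, and at 6 of all genes (0.0274%). None of the 8 lost H3K27me3 by the mirror rule (0 of 5 DKOITD and 3 of 3 WT mice), which 112 of all genes met (0.512%), and none had every DKOITD mouse below every WT mouse, as 293 of all genes did (1.34%). The 8 genes were chosen on this contrast, so nothing is read from these counts.

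**Figure D1:**
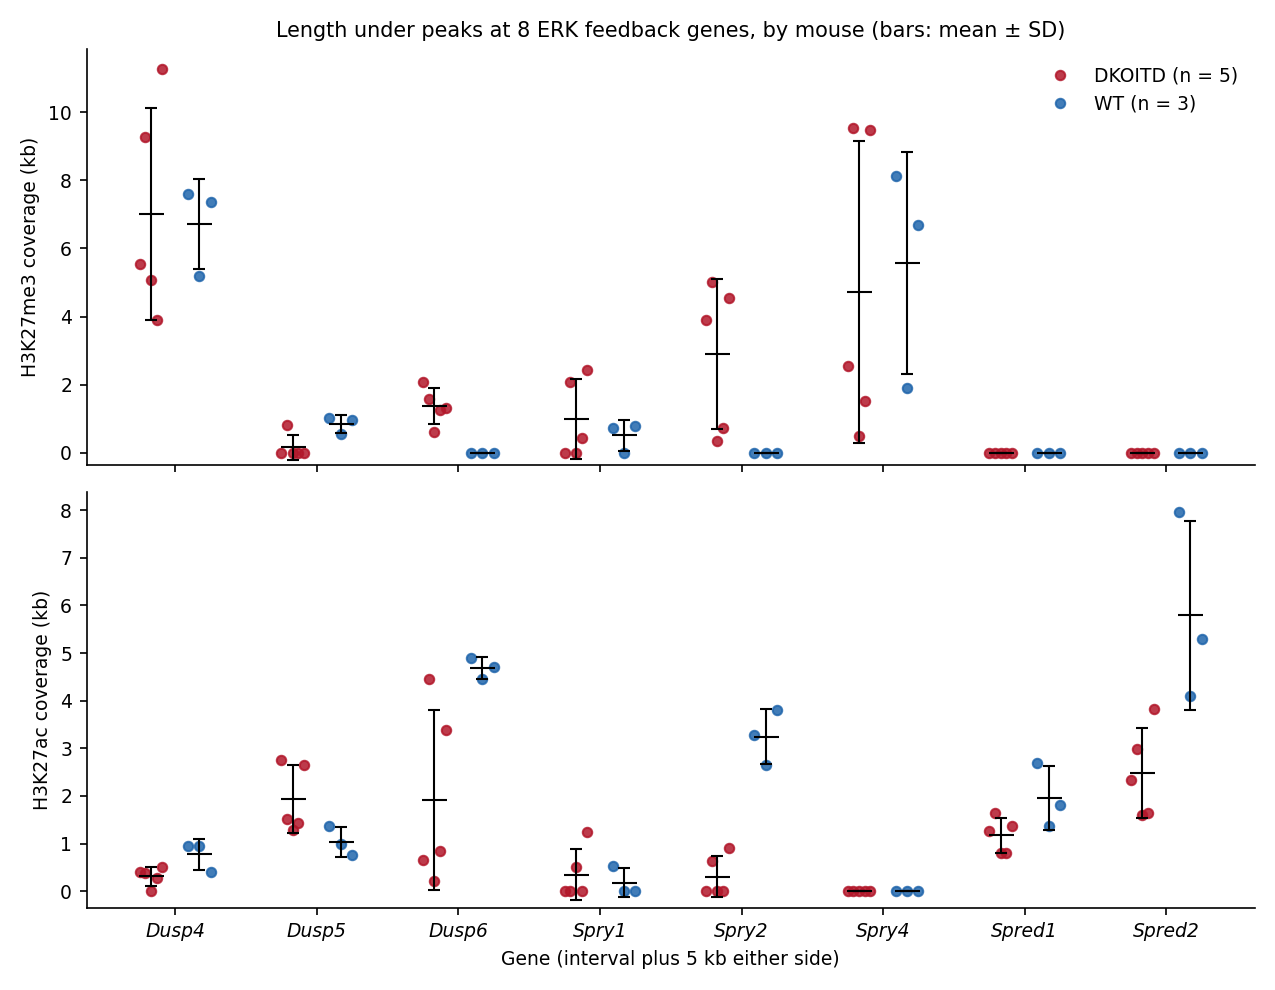
Length under H3K27me3 peaks (upper panel, kb) and H3K27ac peaks (lower panel, kb) in the window of each gene; points are mice, DKOITD left of WT, and bars are the mean ± SD. Dusp6 and Spry2 are the only genes of the 8 with H3K27me3 in all 5 DKOITD mice and in none of the 3 WT mice, and Spry2 has the widest separation of the groups in H3K27ac, with at most 0.903 kb in DKOITD and at least 2.66 kb in WT.

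Dusp6 encodes a cytoplasmic phosphatase selective for ERK and is among the most direct reporters of ERK activity. It lies on mm10 chromosome 10, 99263231 to 99267489, with no other protein-coding gene in its window. H3K27me3 covered 2.07 kb in DKOITD48, 1.57 kb in DKOITD52, 0.612 kb in DKOITD53e, 1.27 kb in DKOITD83 and 1.30 kb in DKOITD185, and 0 in WT1, WT2 and WT3. The groups did not overlap, and the mean was 1.36 kb ± 0.529 (SD, n = 5) in DKOITD and 0 (n = 3) in WT marrow. The H3K27me3 libraries held 3343831 fragments in DKOITD48 and 4752231 to 6411696 in the other 4 DKOITD mice, against 2766339, 3994483 and 3780713 in WT1, WT2 and WT3. The part of depth in this difference was not tested.

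The Dusp6 peaks were of moderate strength within their own lists. By −log10 q as deposited by the authors, 86.9% of the H3K27me3 peaks of DKOITD52, 83.7% of DKOITD53e, 82.1% of DKOITD185, 72.3% of DKOITD48 and 35.7% of DKOITD83 were weaker. None reached a −log10 q of 5; the highest was 4.98 in DKOITD52. With that stricter threshold neither Dusp6 nor Spry2 had H3K27me3 in any mouse, and with every library reduced to its 1891 strongest peaks Dusp6 was marked in 2 of 5 and Spry2 in 3 of 5 DKOITD mice, against 0 of 3 WT mice for each. Over all genes, 20 met the rule of gain at the stricter threshold and 22 with equal peak numbers.

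H3K27ac at Dusp6 covered 0.661 kb in DKOITD48, 4.46 kb in DKOITD52, 0.208 kb in DKOITD53e, 0.834 kb in DKOITD83 and 3.39 kb in DKOITD185, against 4.90, 4.46 and 4.70 kb in WT1, WT2 and WT3. DKOITD48, DKOITD53e and DKOITD83 kept only a short stretch, whereas DKOITD52 and DKOITD185 kept most of the acetylated length. The mean was 1.91 kb ± 1.89 (SD, n = 5) in DKOITD and 4.69 kb ± 0.221 (SD, n = 3) in WT marrow. The nearest mice of the 2 groups, DKOITD52 at 4456 bp and WT2 at 4457 bp, differed by a single base pair, so the groups touched. The same mice that kept acetylation at Dusp6 had the largest H3K27ac territories of the DKOITD group, and the part of territory in this pattern was not tested.

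The new H3K27me3 of Dusp6 lay mostly on DNA that was acetylated in WT marrow. There, an H3K27ac peak of 3.64 to 3.81 kb spanned the low-coordinate end of the gene, and a weaker one began 1.05 to 1.30 kb beyond the high-coordinate end. The annotation used here gives no strand, so distances are given from the low-coordinate end. New H3K27me3, meaning bases under a peak in a DKOITD mouse and in no WT mouse, began between -0.271 and 0.712 kb from that end. It stopped between 1.14 and 1.80 kb inside the gene, and the acetylated block ended at 1.555, 1.375 and 1.496 kb in WT1, WT2 and WT3. In DKOITD48, DKOITD52 and DKOITD185 the new H3K27me3 ran past that block.

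The stretch under H3K27me3 in all 5 DKOITD mice was 431 bp, at chromosome 10, 99263943 to 99264373, 0.712 to 1.14 kb from the low-coordinate end. None of the 431 bp was acetylated in any DKOITD mouse, and all were acetylated in all 3 WT mice. Taking bases acetylated in at least 2 of 3 WT mice, 85.4% of the new H3K27me3 at Dusp6 lay on them in DKOITD48, 84.0% in DKOITD52, 100% in DKOITD53e, 100% in DKOITD83 and 91.2% in DKOITD185. Over the whole genome the corresponding shares were 10.7%, 1.25%, 8.39%, 5.46% and 0.644%. Summed over the 5 mice, 6157 of 6825 bp of new H3K27me3 at Dusp6 (90.2%) lay on WT-acetylated bases. In each mouse, most new H3K27me3 at Dusp6 was on such bases and most new H3K27me3 over the genome was not. The 2 shares have unlike backgrounds: H3K27ac covered 32.9% of the Dusp6 window on average in WT marrow, and 20.1 Mb of the genome in at least 2 WT mice. This position was also among the values that chose the genes, so nothing is read from the contrast.

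**Figure D2:**
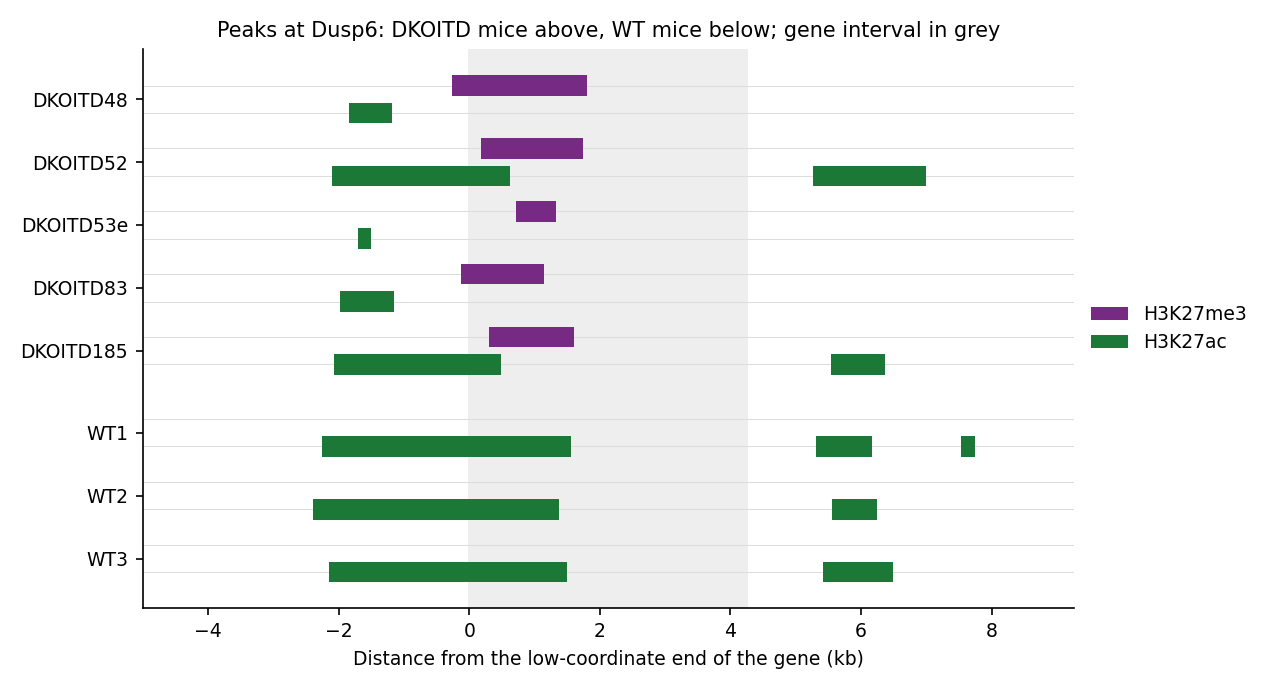
H3K27me3 (purple) and H3K27ac (green) peaks at Dusp6, 1 pair of rows per mouse with DKOITD above WT, against distance from the low-coordinate end of the gene (kb); the gene interval is grey. H3K27me3 lies near the low-coordinate end of the interval in all 5 DKOITD mice, mostly on the inner part of the block that is acetylated in all 3 WT mice. In DKOITD48, DKOITD52 and DKOITD185 it runs past the inner end of that block.

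The DKOITD mice differed in how much of the Dusp6 acetylation they kept. Of the 4575 bp acetylated in at least 2 WT mice, DKOITD52 kept 77.6% and DKOITD185 kept 71.4% acetylated, while DKOITD83 kept 18.2%, DKOITD48 14.4% and DKOITD53e 4.55%. Over the genome the kept shares were 67.3% in DKOITD52, 68.3% in DKOITD185, 32.5% in DKOITD83, 47.97% in DKOITD48 and 30.5% in DKOITD53e. The only H3K27ac peaks of DKOITD48, DKOITD53e and DKOITD83 lay outside the gene and ended at -1.18, -1.504 and -1.15 kb from its low-coordinate end. In DKOITD52 and DKOITD185 the block reached 0.618 and 0.488 kb into the gene, and both also kept the peak beyond the high-coordinate end. Both marks covered the same bases in DKOITD52 (441 bp) and DKOITD185 (181 bp) and in none of the other 3 DKOITD mice. Both marks over the same bases of a mixed marrow can come from different cells or alleles, which these files do not separate.

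Acetylated sites farther from Dusp6 were mostly seen in WT marrow. Between 5 kb and 100 kb from the gene, H3K27ac covered 0 in DKOITD48, DKOITD52 and DKOITD83, 0.268 kb in DKOITD53e and 1.60 kb in DKOITD185, against 8.78, 4.204 and 6.47 kb in WT1, WT2 and WT3. The groups did not overlap, and DKOITD52, which kept acetylation at the gene itself, had none at a distance. At this distance the groups did not overlap at Dusp5 either, and the share of all genes with this ordering was not measured. In windows with 5 kb flanks, 81.5% of all genes tested for H3K27ac were lower in DKOITD, so nothing is read from this separation. The longest of these sites, 3.32 to 3.92 kb in WT, began about 94 kb on the low-coordinate side inside Poc1b, a centriole gene (chromosome 10, 99107082 to 99198074) and the only other coding gene within 100 kb. Shorter peaks lay within this site in DKOITD53e (268 bp) and DKOITD185 (1042 and 262 bp). Another site, at -59.4 to -58.2 kb in WT1, was present in no DKOITD and all 3 WT mice. No H3K27me3 peak lay in this wider region in any mouse, so H3K27me3 within 100 kb of Dusp6 lay in the gene's own window alone.

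Spry2 encodes a Sprouty protein that restrains signalling from receptor tyrosine kinases to RAS and RAF. It lies on chromosome 14, 105891947 to 105896819, with no other protein-coding gene in its window or within 100 kb. H3K27me3 covered 3.89 kb in DKOITD48, 5.02 kb in DKOITD52, 0.357 kb in DKOITD53e, 0.716 kb in DKOITD83 and 4.56 kb in DKOITD185, and 0 in WT1, WT2 and WT3. The groups did not overlap, but DKOITD53e and DKOITD83 had much shorter domains than the other 3 DKOITD mice. The mean was 2.91 kb ± 2.204 (SD, n = 5) in DKOITD and 0 (n = 3) in WT marrow.

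H3K27ac at Spry2 was 0 in DKOITD48, DKOITD53e and DKOITD83, 0.632 kb in DKOITD52 and 0.903 kb in DKOITD185, against 3.27, 2.66 and 3.80 kb in WT1, WT2 and WT3. The groups did not overlap, and the mean was 0.307 kb ± 0.431 (SD, n = 5) in DKOITD and 3.24 kb ± 0.572 (SD, n = 3) in WT marrow. DKOITD52 and DKOITD185 kept 19.5% and 27.8% of the mean WT length. Their medians over the 10410 genes acetylated in every WT mouse were 93.7% and 97.6%. The spread over those genes is not given and Spry2 was chosen on this coverage, so nothing is read from the gap. Since 2 DKOITD mice were still marked, Spry2 missed the rule for loss of H3K27ac (0 of 5 DKOITD and 3 of 3 WT mice), which 0 of the 8 genes and 131 of all genes (0.599%) met. With each library reduced to its 8825 strongest H3K27ac peaks, Spry2 was acetylated in 0 of 5 DKOITD and 3 of 3 WT mice, as were 117 of all genes.

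At Spry2 the 3 long H3K27me3 domains covered the whole block that was acetylated in WT marrow. Of 3130 bp acetylated in at least 2 WT mice, all lay under H3K27me3 in DKOITD48, DKOITD52 and DKOITD185, 716 bp (22.9%) in DKOITD83 and none in DKOITD53e. The long domains also ran past the block: 80.5% of the new H3K27me3 in DKOITD48, 62.4% in DKOITD52 and 68.7% in DKOITD185 lay on WT-acetylated bases, with 100% in DKOITD83 and 0 in DKOITD53e. The DKOITD53e peak was the weakest of the set, at a −log10 q of 1.13, with only 8.62% of that library's peaks weaker. It lay outside the gene, 6.602 to 6.96 kb from the low-coordinate end, partly on bases acetylated in WT3 alone, and with a flank of 1 kb in place of 5 kb Spry2 no longer met the rule of gain. No base at Spry2 was under H3K27me3 in all 5 DKOITD mice, and 994 bp were so in at least 4.

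**Figure D3:**
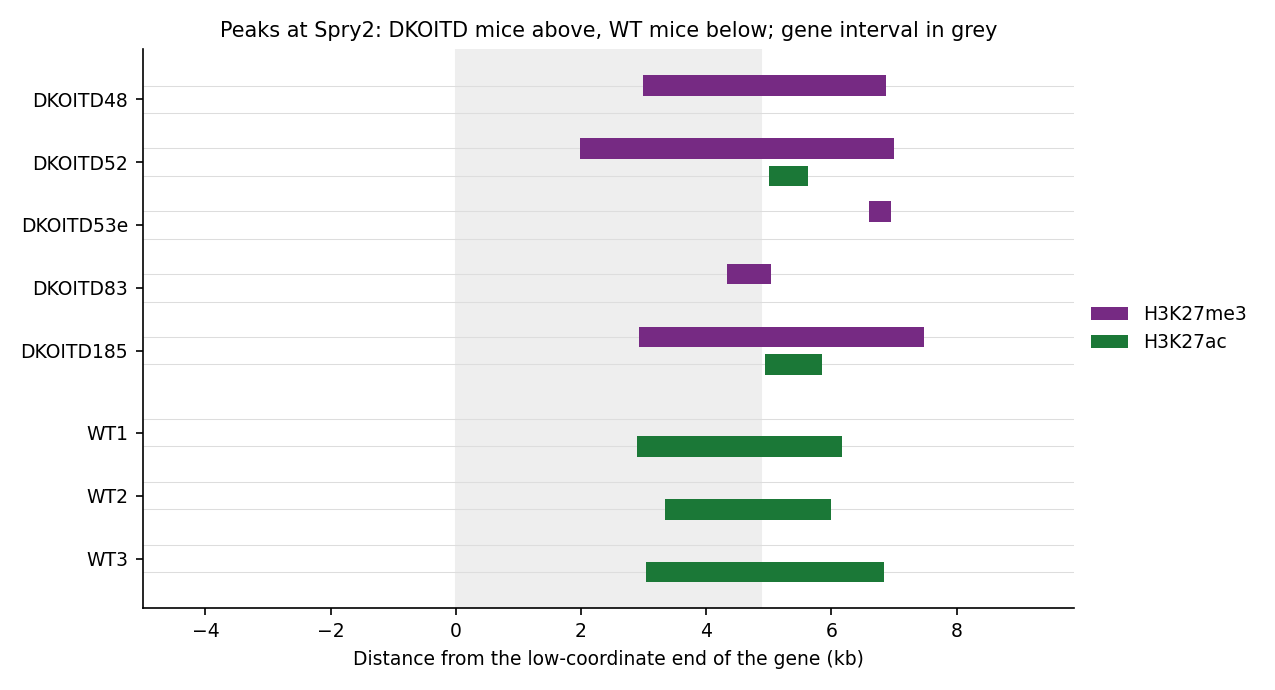
H3K27me3 (purple) and H3K27ac (green) peaks at Spry2, 1 pair of rows per mouse with DKOITD above WT, against distance from the low-coordinate end of the gene (kb); the gene interval is grey. The block acetylated in all 3 WT mice is under H3K27me3 in DKOITD48, DKOITD52 and DKOITD185, partly so in DKOITD83, and the short DKOITD53e peak lies beyond the gene.

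The remaining acetylation of Spry2 lay inside its new H3K27me3. All 632 bp in DKOITD52 and all 903 bp in DKOITD185 were also under H3K27me3 in the same mouse. Farther out, between 5 and 100 kb, no DKOITD mouse had H3K27ac, whereas WT1 and WT3 had 2 sites 28.6 to 31.3 kb from the low-coordinate end, together 1.49 and 1.16 kb long, and WT2 had none. In DKOITD52 the first of these sites carried an H3K27me3 peak of 0.485 kb, at chromosome 14, 105920717 to 105921201, inside the stretch acetylated in WT1 and WT3.

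Genes acetylated in all 3 WT mice and free of H3K27me3 there numbered 8148, among them Dusp6, Spry2, Spred1 and Spred2. Of these, 36 carried H3K27me3 in DKOITD48, 277 in DKOITD52, 17 in DKOITD53e, 20 in DKOITD83 and 370 in DKOITD185. Dusp6 and Spry2 were in each of these sets, and Spred1 and Spred2 were in none. In all, 4 of the 8148 genes (0.0491%) were in every set. They were the same 4 that met the presence rule of gain: Dusp6, Spry2, Pip5k1b and Cd81. The 8 ERK feedback genes were chosen on these values, so nothing is read from these counts.

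Spred1 and Spred2 encode membrane proteins that hold RAS in check, and at both genes a block at the low-coordinate end was acetylated in all 8 mice, with no H3K27me3 peak in the window of either gene in any of them. Spred1 lies on chromosome 2, 117121071 to 117182279, and Spred2 on chromosome 11, 19924442 to 20024026. H3K27ac at Spred1 covered 1.26, 1.64, 0.799, 0.793 and 1.36 kb in DKOITD48, DKOITD52, DKOITD53e, DKOITD83 and DKOITD185, against 2.69, 1.37 and 1.82 kb in WT1, WT2 and WT3. The groups overlapped, and the shortest coverage was in DKOITD53e and DKOITD83, whose H3K27ac territories were also the smallest. In DKOITD53e, DKOITD83 and DKOITD48 Spred1 kept 40.8%, 40.5% and 64.4% of the mean WT length, beside those libraries' medians over all genes of 39.8%, 42.6% and 67.6%. In DKOITD52 and DKOITD185 it kept 83.8% and 69.4%, below their medians of 93.7% and 97.6%. WT1, WT2 and WT3 themselves stood at 137%, 69.8% and 92.8% of the mean WT length at Spred1. Spred1 was chosen on this coverage, so nothing is read from the gap.

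At Spred2, H3K27ac covered 2.34, 2.99, 1.61, 1.65 and 3.83 kb in DKOITD48, DKOITD52, DKOITD53e, DKOITD83 and DKOITD185, against 7.97, 4.11 and 5.29 kb in WT1, WT2 and WT3. Every DKOITD value was below every WT value, as it was at Dusp6, by 1 bp, and at Spry2. Across all genes 1852 (8.46%) had every DKOITD mouse below every WT mouse, beside 3 of these 8. The 8 were chosen on this coverage, so nothing is read from these counts. None of the 8 had every DKOITD mouse above every WT mouse in H3K27ac, as 215 of all genes did (0.982%). The main block at the low-coordinate end persisted at Spred2 in all 8 mice. The peak about 4 kb outside that end was present in DKOITD48, DKOITD52 and DKOITD185 and in all 3 WT mice, and weak sites inside the gene were called in no DKOITD mouse and in WT1 and WT3.

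**Figure D4:**
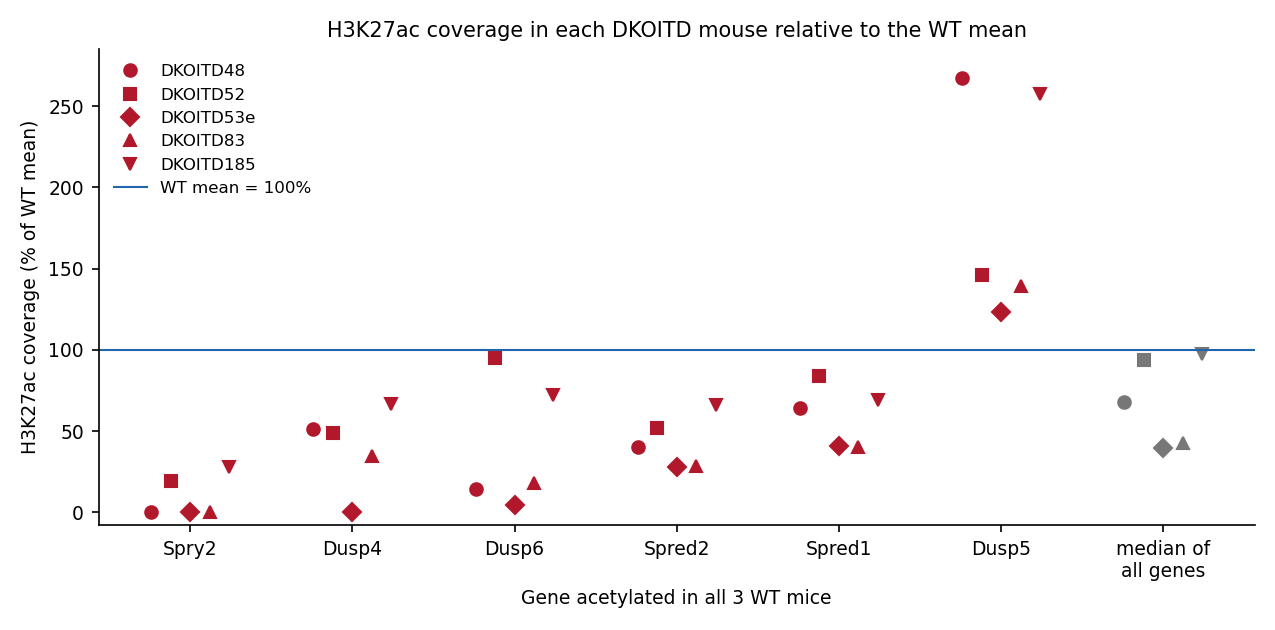
H3K27ac coverage of the window in each DKOITD mouse as a percent of the WT mean (line at 100%), for the 6 genes acetylated in all 3 WT mice (red) and as the median over the 10410 such genes (grey). Spry2 kept at most 27.8%, Dusp5 was above 100% in all 5 mice, and DKOITD53e and DKOITD83 were low at most of the other genes and in the median.

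Dusp4 and Spry4 carried H3K27me3 in all 8 mice, and the genotypes overlapped at both. Dusp4 encodes a nuclear phosphatase of ERK and other MAP kinases and lies on chromosome 8, 34807610 to 34819894. H3K27me3 covered 5.53, 9.27, 5.07, 3.90 and 11.3 kb in DKOITD48, DKOITD52, DKOITD53e, DKOITD83 and DKOITD185, against 7.60, 5.18 and 7.36 kb in WT1, WT2 and WT3. The WT values lay inside the DKOITD range, and the mean was 7.01 kb ± 3.12 (SD, n = 5) in DKOITD and 6.71 kb ± 1.33 (SD, n = 3) in WT marrow. The 2 DKOITD mice with the largest H3K27me3 territories had the longest domains.

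At Dusp4 a narrow H3K27ac peak lay at the low-coordinate end of the gene in every mouse but DKOITD53e, and in WT2 it crossed into the gene. It covered 0.394, 0.376, 0, 0.267 and 0.515 kb in DKOITD48, DKOITD52, DKOITD53e, DKOITD83 and DKOITD185, and the window held 0.955, 0.949 and 0.406 kb in WT1, WT2 and WT3. The groups overlapped. In DKOITD48 and DKOITD83, as in WT2, the H3K27me3 domain was split by a gap at this site, and no base carried both marks in those 2 DKOITD mice. Both marks covered 376 and 515 bp in DKOITD52 and DKOITD185, and 955, 139 and 406 bp in WT1, WT2 and WT3.

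Spry4, another Sprouty gene, lies on chromosome 18, 38586247 to 38601347, and had no H3K27ac peak in its window in any mouse. H3K27me3 covered 2.54, 9.52, 0.502, 1.51 and 9.48 kb in DKOITD48, DKOITD52, DKOITD53e, DKOITD83 and DKOITD185, against 8.13, 1.91 and 6.70 kb in WT1, WT2 and WT3. The groups overlapped, with means of 4.71 kb ± 4.43 (SD, n = 5) in DKOITD and 5.58 kb ± 3.26 (SD, n = 3) in WT marrow. In all 8 mice a peak lay inside the gene near its high-coordinate end. In all but DKOITD53e, H3K27me3 also lay beyond that end, where Arhgap26 (chromosome 18, 38601617 to 39376285) begins, so the outer peaks cannot be assigned to Spry4 alone. Between 5 and 100 kb from Spry4, H3K27me3 covered a further 0.858 to 32.4 kb in DKOITD and 10.1 to 20.3 kb in WT mice.

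Dusp5, which encodes a nuclear phosphatase selective for ERK, had less H3K27me3 and more H3K27ac coverage on average in DKOITD than in WT marrow, with overlapping groups. It lies on chromosome 19, 53529145 to 53541809. H3K27me3 was 0 in DKOITD48, DKOITD53e, DKOITD83 and DKOITD185 and 0.811 kb in DKOITD52, against 1.03, 0.560 and 0.958 kb in WT1, WT2 and WT3. Small peaks just inside the low-coordinate end were thus called in 1 of 5 DKOITD and 3 of 3 WT mice, and the groups overlapped through DKOITD52. H3K27ac covered 2.76, 1.51, 1.27, 1.44 and 2.66 kb in DKOITD48, DKOITD52, DKOITD53e, DKOITD83 and DKOITD185, against 1.36, 0.991 and 0.751 kb in WT1, WT2 and WT3. The groups overlapped only through WT1 and DKOITD53e, and the mean was 1.93 kb ± 0.718 (SD, n = 5) in DKOITD and 1.03 kb ± 0.307 (SD, n = 3) in WT marrow.

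All 5 DKOITD mice stood above the WT mean of acetylation at Dusp5, at 123% to 267%. In DKOITD53e and DKOITD83 the medians over all genes acetylated in every WT mouse were 39.8% and 42.6%. Dusp5 was chosen on this coverage, so nothing is read from the gap. Extra peaks inside the gene, 6.70 to 7.54 kb from the low-coordinate end, appeared in DKOITD48 and DKOITD185 and in no WT mouse. Every DKOITD H3K27ac library held more fragments than any WT library, and the part of depth in these values was not tested. In WT1 and WT2, 447 and 265 bp at Dusp5 carried both marks, and in WT3 none did. At a distance of 5 to 100 kb the lower values were in DKOITD: H3K27ac covered 0.647 to 4.74 kb in DKOITD and 4.89 to 5.47 kb in WT mice. The share of all genes with this ordering at that distance was not measured.

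Spry1, a Sprouty gene on chromosome 3, 37639947 to 37644599, was weakly and variably marked. H3K27me3 covered 0, 2.08, 0, 0.421 and 2.42 kb in DKOITD48, DKOITD52, DKOITD53e, DKOITD83 and DKOITD185, against 0.734, 0 and 0.802 kb in WT1, WT2 and WT3. H3K27ac was 0.504 kb in DKOITD53e, 1.24 kb in DKOITD185 and 0.523 kb in WT1, and 0 in the other 5 mice. The groups overlapped for both marks. In DKOITD52 and DKOITD185 the H3K27me3 peak extended toward the low-coordinate end by comparison with WT1 and WT3, over bases acetylated in at most 1 WT mouse.

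**Figure D5:**
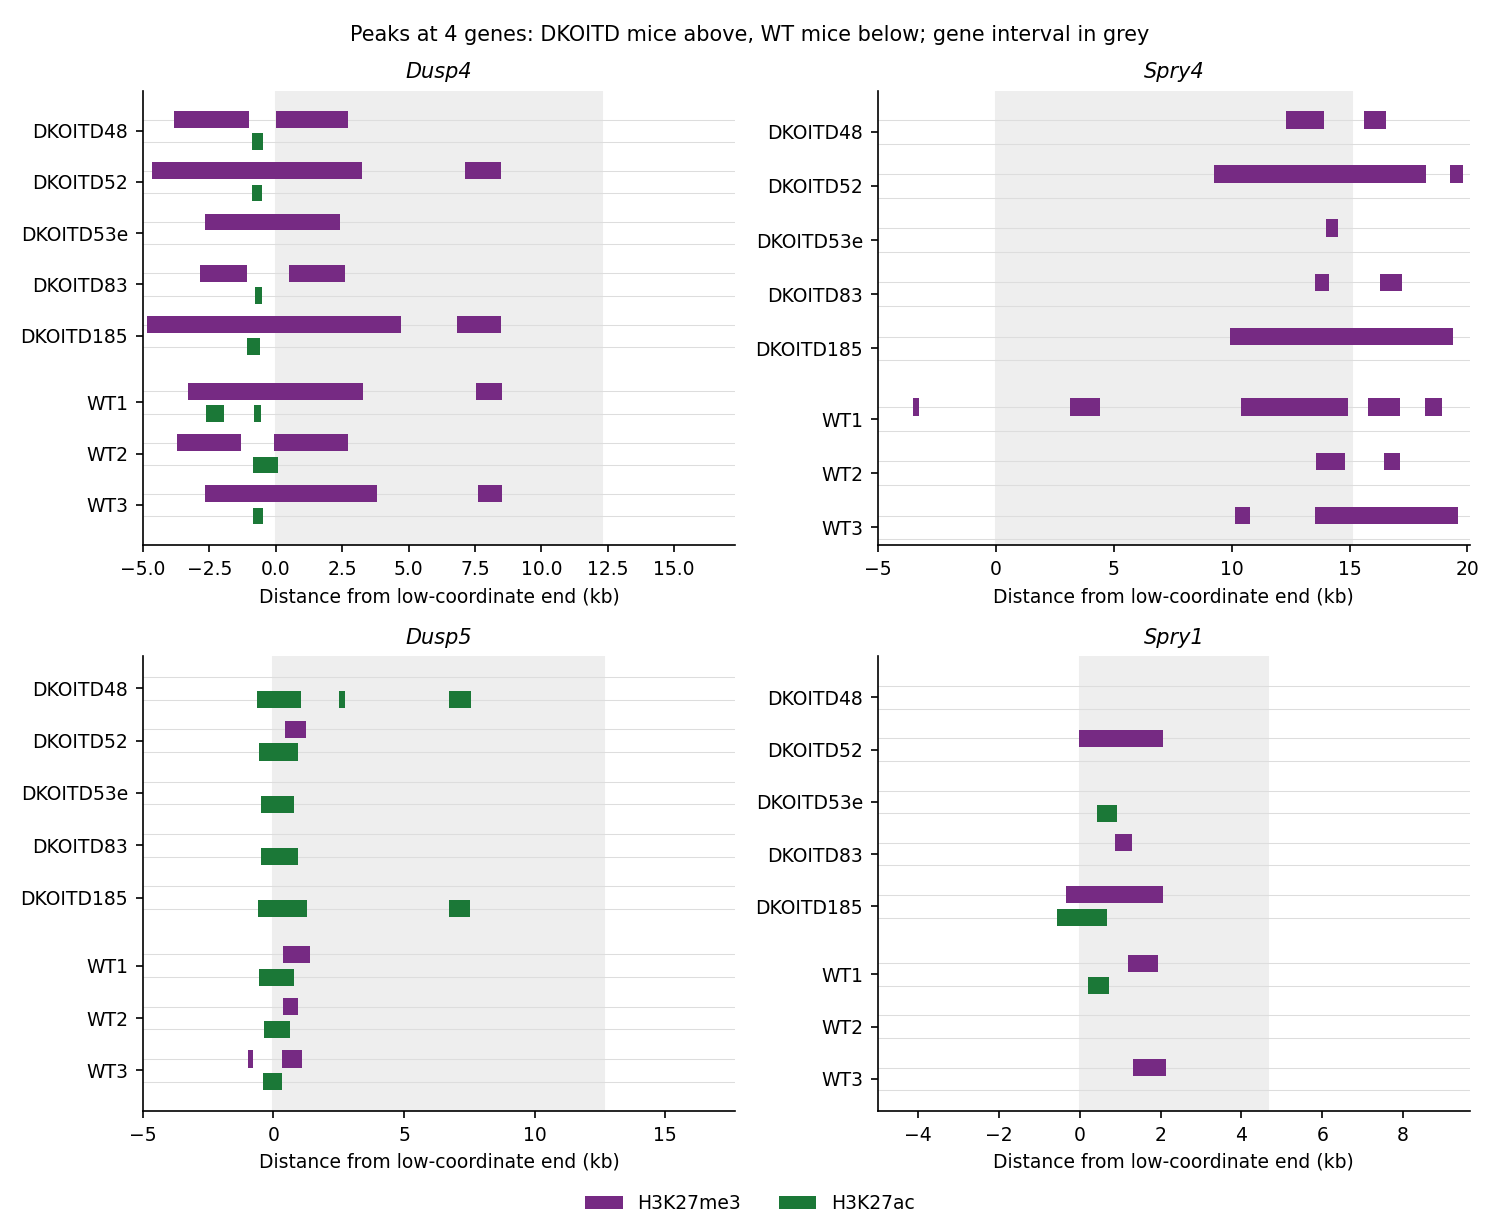
H3K27me3 (purple) and H3K27ac (green) peaks at Dusp4, Spry4, Dusp5 and Spry1, 1 pair of rows per mouse with DKOITD above WT, against distance from the low-coordinate end of each gene (kb); gene intervals are grey. H3K27me3 lies at the low-coordinate end of Dusp4 and near the high-coordinate end of Spry4 in all 8 mice, Dusp5 is acetylated in all 8 with H3K27me3 in DKOITD52 and the 3 WT mice, and Spry1 has scattered short peaks.

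Set against window length, the 8 genes formed an order that differed by mark and genotype. H3K27me3 covered 31.5% ± 14.0 of the Dusp4 window, 19.5% ± 14.8 of Spry2, 18.8% ± 17.7 of Spry4, 9.57% ± 3.71 of Dusp6, 6.71% ± 8.01 of Spry1, 0.716% ± 1.60 of Dusp5 and 0 of the SPRED windows in DKOITD marrow (SD, n = 5). Neighbours in this order lay within 1 SD of each other. In WT marrow the order was Dusp4 at 30.1% ± 5.98, Spry4 at 22.2% ± 13.0, Dusp5 at 3.75% ± 1.12 and Spry1 at 3.49% ± 3.03 (SD, n = 3), with 0 at Dusp6, Spry2 and both SPRED genes. The step between Spry4 and Dusp5 exceeded the SDs. Dusp4 and Spry4 lay within 1 SD of each other, as did Dusp5 and Spry1, and WT2 had 0 at Spry1.

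For H3K27ac, the highest means in DKOITD marrow were 13.4% ± 13.3 at Dusp6 and 8.51% ± 3.17 at Dusp5 (SD, n = 5). The Dusp6 mean rested on DKOITD52 and DKOITD185, and in DKOITD48, DKOITD53e and DKOITD83 Dusp6 was below Dusp5. They were followed by 5 genes between 1.39% and 2.38% whose SDs overlapped, and Spry4 at 0. In WT marrow Dusp6 at 32.9% ± 1.55 and Spry2 at 21.8% ± 3.84 led (SD, n = 3), each separated from the next beyond the SDs. Spred2 at 5.28% ± 1.80, Dusp5 at 4.56% ± 1.35, Dusp4 at 3.46% ± 1.41, Spred1 at 2.75% ± 0.946 and Spry1 at 1.19% ± 2.06 then followed with overlapping SDs. By percent of window, Spry2 thus stood second of 8 in WT acetylation and was among the lower genes in DKOITD marrow. This order depends on window length, 14.9 kb at Spry2 and 110 kb at Spred2. In kb, the WT means were 5.79 at Spred2, 4.69 at Dusp6 and 3.24 at Spry2. The median of the 8 differences in mean coverage was 0.148 kb for H3K27me3 and -0.624 kb for H3K27ac, beside -0.694 and -0.384 kb over all genes tested for each mark. The sets are unlike: genes tested had a peak in at least 3 libraries, whereas Spred1 and Spred2 had no H3K27me3 in any mouse. The 8 were also chosen on these values, so nothing is read from the medians.

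Genes elsewhere in the genome with the pattern most like Dusp6, by Euclidean distance of log2(kb + 0.1) over 16 values (8 mice, 2 marks), were Vegfa at 4.10, Cd81 at 4.42 and Pip5k1b at 4.67. Vegfa, an endothelial growth factor gene, had up to 3.16 kb of H3K27me3 in DKOITD and 0 in WT, with 0.417 to 2.39 kb of H3K27ac in DKOITD and 2.87 to 6.59 kb in WT mice. The genes nearest to Spry2 were Cd24a, a surface glycoprotein gene of progenitors and B cells, at 4.71, 1700020L24Rik at 5.93 and Pdlim7 at 6.04. Cd24a had up to 3.49 kb of H3K27me3 in DKOITD and 0 in WT, with at most 1.49 kb of H3K27ac in DKOITD and 3.44 to 4.498 kb in WT mice.

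The rest of the pathway was examined through 78 further genes in 5 lists, filled by textbook role in the pathway. Each gene's coverage was tested with limma on log2(kb + 0.1), fitted over all genes with a peak in at least 3 libraries of the mark, and called at a Benjamini-Hochberg adjusted p under 0.05. For H3K27me3, 24 of the 78 could be tested and 0 were called in either direction, as were 0 of all 5758 genes tested (0% higher and 0% lower), with 12 higher and 343 lower at an unadjusted p under 0.05. By the presence rule none of the 78 gained or lost H3K27me3. For H3K27ac, 71 could be tested, with 3 called higher and 2 lower in DKOITD. Over all 11980 genes tested, 105 (0.876%) were higher and 330 (2.75%) lower, and the median log2 difference was -0.51, so coverage was generally shorter in DKOITD. Leaving out 1 WT mouse left 14 to 33 genes higher and 5 to 17 lower.

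Among 10 other MAP kinase phosphatases, 8 were tested for H3K27ac, with 2 called higher and 0 lower. Dusp3 (chromosome 11, 101971141 to 101987013), a small phosphatase of ERK and JNK, had 2.79 kb ± 1.45 across DKOITD mice (SD, n = 5), against 0.451 kb ± 0.210 across WT mice (SD, n = 3). Its log2 difference was 2.31 with an SE of 0.449 and a limma adjusted p of 0.0272. At Dusp22 (chromosome 13, 30660059 to 30711232), a phosphatase of the JNK pathway, DKOITD marrow averaged 4.86 kb ± 2.70 (SD, n = 5) and WT marrow 0.925 kb ± 0.298 (SD, n = 3), a log2 difference of 2.18 (limma adjusted p = 0.0233). Both were longer in all 5 DKOITD mice than in any WT mouse.

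Among 17 RAS genes and upstream activators, 16 were tested, with 1 called higher and 0 lower. It was Rras2 (chromosome 7, 114046782 to 114117781), a RAS-related GTPase, with 1.17, 0.756, 1.01, 0.427 and 1.57 kb of H3K27ac in DKOITD48, DKOITD52, DKOITD53e, DKOITD83 and DKOITD185 and 0 in the 3 WT mice (limma adjusted p = 0.00870). Rras2 was also the only 1 of the 78 to gain H3K27ac by the presence rule, which 79 of all genes (0.361%) met. Of 16 further RAS and ERK inhibitors 14 were tested and 1 was lower: Rasa2, a RAS GTPase-activating protein, with 0.975 kb ± 0.244 (SD, n = 5) in DKOITD and 4.57 kb ± 2.86 (SD, n = 3) in WT marrow (limma adjusted p = 0.0430).

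Of 24 ERK target genes 23 were tested and 1 was lower: Ets1, a transcription factor gene of lymphoid cells, with 0.498 kb ± 0.359 (SD, n = 5) in DKOITD and 6.68 kb ± 2.80 (SD, n = 3) in WT marrow, a log2 difference of -3.79 (limma adjusted p = 0.0247). Of 11 RAF, MEK, ERK and scaffold genes 10 were tested and 0 were called, against the same background. The 5 calls leaned on the small WT group: none was kept without WT1 or without WT3, and without WT2 only that of Rasa2. Without DKOITD48 the call of Rras2 alone was kept, and Rasa2 was also lost without DKOITD53e, DKOITD83 or DKOITD185. The limma adjusted p reached 0.255 for Dusp22, 0.196 for Dusp3, 0.251 for Rasa2 and 0.197 for Ets1 over 16 alternatives, and 0.277 for Rras2 over the 14 in which it gave a value. Rras2 was not fitted with peaks of −log10 q at least 5, or with only DKOITD52 and DKOITD185 among the DKOITD mice. In both settings it had a peak in fewer than the 3 libraries required.

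Acetylation at marker genes of blood cell types is given beside these values. H3K27ac lay at 0 to 2 of 5 stem and progenitor genes in DKOITD and 2 to 4 in WT mice, at 1 to 5 of 5 myeloid genes in DKOITD and 4 or 5 in WT mice, and at 4 or 5 of 5 dendritic cell genes in DKOITD and 1 to 3 in WT mice. Summed over each list, coverage was 0 to 1.48 kb in DKOITD and 1.70 to 7.91 kb in WT mice for stem and progenitor genes, and 15.4 to 28.7 kb in DKOITD and 0.531 to 2.997 kb in WT mice for dendritic cell genes. The myeloid list summed to 0.848 to 9.65 kb in DKOITD and 8.91 to 20.3 kb in WT mice. Every gene of these 3 lists was acetylated in at least 1 mouse. T cell genes were acetylated at 1 to 3 of 5 in DKOITD and 2 or 3 in WT mice. Of this list, Cd3e and Bcl11b were acetylated in no mouse, and Cd3g, Cd247 and Lck each in at least 1. B cell genes were acetylated at 1 or 2 of 5 in DKOITD and 2 to 5 in WT mice, and erythroid genes at 2 of 5 in DKOITD and 3 or 4 in WT mice. The part of these cell types in the values at Dusp6, Spry2 and Dusp5 was not tested.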

How the data were processed

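Peak lists of H3K27me3 and H3K27ac from 8 mice (16 of 28 samples) were used; the human lines and inputs were not analysed here. Bowtie2 2.2.5, MACS2 2.0.10 and mm10 are named in the submitters' processing notes. Broad peaks were called by the authors in each library with MACS 2.0.10.20131216, per the file headers, at a q cutoff of 0.05, against 1 input library per genotype. The authors deposited for each peak its signal (pileup), the −log10 of its p-value and q-value, its length, and the ratio (fold) of signal to background; these were used for ranking and filtering inside each list. The added Drosophila chromatin entered no scaling of the deposited peaks per the labels, so no absolute level is available. Depth differed between libraries, and a weak mark can be missed.

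Overlapping peaks were merged and intersected with RefSeq gene intervals (GRCm38) plus 5 kb, with Python 3.11.15; limma 3.58.1 ran in R 4.3.3 with a pseudocount of 0.1 kb. Mice are separate samples per the labels. The genes and lists were chosen with earlier results of these data known, and the 8 genes get no test between the genotypes. Of each list, genes called by limma or by the presence rule were named, up to 6 per mark. The test and the coverage count were tested on simulated data.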

Additional observations from a re-analysis of the deposited data

Results flagged for a closer look

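Dusp5 H3K27me3 in DKOITD52 stood apart from the other DKOITD mice: it covered 0.811 kb there and 0 in the other 4. The coverage of Dusp5 was among the values that chose the genes, so this is a description of the spread among DKOITD mice and no test.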

How the results depend on the processing

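Dusp6 and Spry2 met the rule of H3K27me3 gain with any single mouse left out, when 4 to 7 of all genes did, with only DKOITD52 and DKOITD185 among the DKOITD mice, when 314 did, and with a minimum of 1 bp, when 5 did. These settings could not fail: a gene that meets the rule in all mice also meets it in fewer. With 0 H3K27me3 in every WT mouse, a lower minimum cannot undo the gain either. The remaining settings could fail. The count of 2, beside 4 of all genes, became 0 beside 20 under a −log10 q minimum of 5, 0 beside 22 with equal peak numbers, 0 beside 1 with a minimum of 1000 bp, and 1 (Dusp6) beside 3 with a flank of 1 kb or no flank. Loss of H3K27ac, met by 0 of the 8 genes, beside 131 of all genes, was met by 1, Spry2, beside 117 with equal peak numbers, 135 with no flank and 247 with a minimum of 1000 bp. The differences in mean H3K27ac coverage of Dusp5, Dusp6, Spry2, Spred1 and Spred2 kept their sign in 13 of 13 alternatives, and those in H3K27me3 of Dusp6 and Spry2 in 12, falling to 0 with the stricter peaks. With 0 in every WT mouse, these H3K27me3 differences could not turn negative. At Dusp6, Spry2 and Spred2 every DKOITD H3K27ac value was below every WT value, so leaving mice out could not change that sign. That of Spry4 in H3K27me3 ran from -2.70 to 3.92 kb and kept its sign in 9, and that of Dusp4 ran from -0.770 to 4.04 kb and kept its sign in 8. The share of new H3K27me3 on WT-acetylated bases was 84.9% to 92.8% at Dusp6 and 59.8% to 87.0% at Spry2; with the stricter peaks there was no new H3K27me3 to place.

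The number of genes called by limma depended on the settings. For H3K27me3 higher in DKOITD the 0 became 11 with the stricter peaks, 10 with equal peak numbers, 2 with no flank and 57 with log2 territory as a covariate. For H3K27me3 lower it became 53 with equal peak numbers, 60 with a flank of 1 kb, 86 with no flank, 1 with no filter on genes, 123 with the covariate, and 0 to 127 with a mouse left out (127 without DKOITD52). For H3K27ac higher the 105 became 49 with the stricter peaks, 249 with equal peak numbers, 33 with only DKOITD52 and DKOITD185, 20 with no filter, 645 with the covariate, and 14 to 129 with a mouse left out (33, 20 and 14 without WT1, WT2 and WT3, 56 without DKOITD48). For H3K27ac lower the 330 became 51 with the stricter peaks, 90 with those 2 DKOITD mice, 582 with a pseudocount of 1 kb, 80 with no filter, and 5 to 508 with a mouse left out (8, 17 and 5 without WT1, WT2 and WT3, 183, 211, 199 and 508 without DKOITD48, DKOITD53e, DKOITD83 and DKOITD185). The cause was not tested. No paired analysis was possible because DKOITD and WT mice share no replicate number.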
